A study of Mus musculus with 8 samples.

Results

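Splenic type 2 conventional dendritic cells (cDC2) of mice with the genotype Irf8 +32-/- were compared with cDC2 of wild-type mice. The members were taken from the labels: 4 of the 8 libraries of the series, 2 per genotype, with all genes of the count tables entered and those above a filter on low counts tested. All 4 groups of cells were sorted from the spleens of C57BL/6 mice, were untreated and held about 100000 cells per library; the other 4 libraries are cDC1 of wild-type mice and of mice with an altered Zeb2 enhancer. The cDC2 libraries were numbered replicate 2 and replicate 3 in both genotypes. The Irf8 genotype is named after an enhancer downstream of the gene and is homozygous, and the label describes no change of the coding exons. The label gives it as a genotype of the mouse, not of cDC2 alone. How many animals went into a library, how the cells were gated and what a replicate number stands for is not stated in the labels; p-values therefore cover no more than the spread between these libraries, which may be technical.

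Conventional dendritic cells show captured antigen to T cells. The cDC1 subset depends on the transcription factor IRF8 throughout its life and keeps it high through an enhancer that BATF3 binds, which is the enhancer this genotype names. The cDC2 subset uses IRF4 and carries SIRPα, and ZEB2 keeps its progenitors away from the cDC1 fate. IRF8 and IRF4 bind composite DNA elements together with ETS or AP-1 family partners.

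The 4 cDC2 libraries held 57876701 and 57450844 counts (wild type) and 54342518 and 49380686 counts (mutant), and 18371 genes passed the filter on low counts. Levels are given as counts scaled to library size with TMM factors (CPM), replicate 2 before replicate 3, and differences as log2 fold changes of mutant minus wild type. Among 8194 genes averaging 10 CPM or more, 7896 (96.4%) had a 95% interval of the log2 fold change that lay within 2-fold either way. The median of all tested genes was 0.01. The mutant libraries differed from each other more than the wild-type libraries did: the SD of the replicate difference over genes was 0.33 against 0.23 on the log2 scale.

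The 3 genes that mark cDC2 differed little between the genotypes. Sirpa, which encodes the surface receptor that marks cDC2, had 888 and 844 CPM in the wild-type and 731 and 769 CPM in the mutant libraries. Irf4 had 456 and 478 CPM in the wild-type and 414 and 493 CPM in the mutant libraries, and Zeb2 had 194 and 194 CPM in the wild-type and 191 and 168 CPM in the mutant libraries. For Sirpa and Zeb2 both mutant libraries lay below both wild-type libraries, and for Irf4 the groups overlapped. Over all tested genes both mutant libraries lay above both wild-type libraries in 20% and below in 19.9%. The log2 fold changes of the markers were -0.21 (95% interval -0.43 to 0.01), -0.04 (-0.30 to 0.22) and -0.11 (-0.36 to 0.13), and none passed the test (adjusted p of at least 0.560, edgeR quasi-likelihood test with Benjamini-Hochberg adjustment). Each interval excludes a 2-fold change. All 3 markers were present in every library, and Xcr1, the chemokine receptor that defines cDC1, had at most 6.08 CPM in the cDC2 libraries, so the label cDC2 and the markers matched.

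Irf8 itself, at chr8:120736358-120756694 on the plus strand (GRCm38), had 122 and 100.4 CPM in the wild-type and 142 and 117 CPM in the mutant libraries. The groups overlapped, and the log2 fold change was 0.22 (95% interval -0.09 to 0.53, adjusted p = 0.684, edgeR). The interval excludes a 2-fold change. On the scaling over all 8 libraries the wild-type cDC1 libraries had 3263 and 3641 CPM of Irf8, against a mean of 115 CPM in wild-type and 133 CPM in mutant cDC2. Per length of transcript, Irf8 was at 15.7 FPKM and Irf4 at 95 FPKM in wild-type cDC2. No cDC1 of the Irf8 mutant enters the comparison, so these libraries do not measure the enhancer in cDC1.

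No other gene near Irf8 passed the test. Within 1000000 bases of the gene body the annotation holds 56 other genes, of which 18 passed the filter on low counts and 0 were called. Their log2 fold changes ran from -0.35 to 0.45, and for 14 of them the 95% interval lay within 2-fold. Cox4i1, Emc8 and Gins2, the nearest tested genes on the upstream side, had log2 fold changes of -0.19, 0.12 and -0.28. At an unadjusted p under 0.05 there was 1 gene, Gse1, with a log2 fold change of -0.32. Of the 9 interferon regulatory factors tested, Irf8 included, 0 passed the test and 1 (Irf1) was lower at an unadjusted p under 0.05; all 9 had an interval within 2-fold, and the values ran from -0.32 (Irf1) to 0.22 (Irf8).

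Over all genes 6 passed the test with edgeR: 3 were higher (0.0163% of tested genes) and 3 were lower (0.0163%) in the mutant. The higher genes were Il12b, Wdfy1 and the light-chain segment Igkv5-39, and the lower genes were Klf4, Fosb and the light-chain segment Igkv4-59. At an unadjusted p under 0.05, 910 genes were higher (4.95%) and 845 were lower (4.6%), out of 18371. With DESeq2 on the same 4 libraries 136 genes were higher (0.972% of 13988 with an adjusted p) and 138 were lower (0.987%), and all 6 edgeR calls were among them. With edgeR fitted over all 8 libraries and their shared spread, 0 genes passed (1313 at an unadjusted p under 0.05). Il12b, Wdfy1, Klf4, Fosb and Igkv5-39 each had an adjusted p of 0.0507 in that edgeR fit, and Igkv4-59 had 0.454. On the same genes, leaving out wild-type replicate 2 kept the call for the light-chain segments alone, leaving out wild-type replicate 3 for these and Il12b, and removing a gene length trend for these and Il12b; leaving out either mutant library kept all 6. The number called also moved with single libraries, to 409 higher and 186 lower without mutant replicate 3 and to 63 and 129 without mutant replicate 2, again on the same genes.

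**Figure D1:**
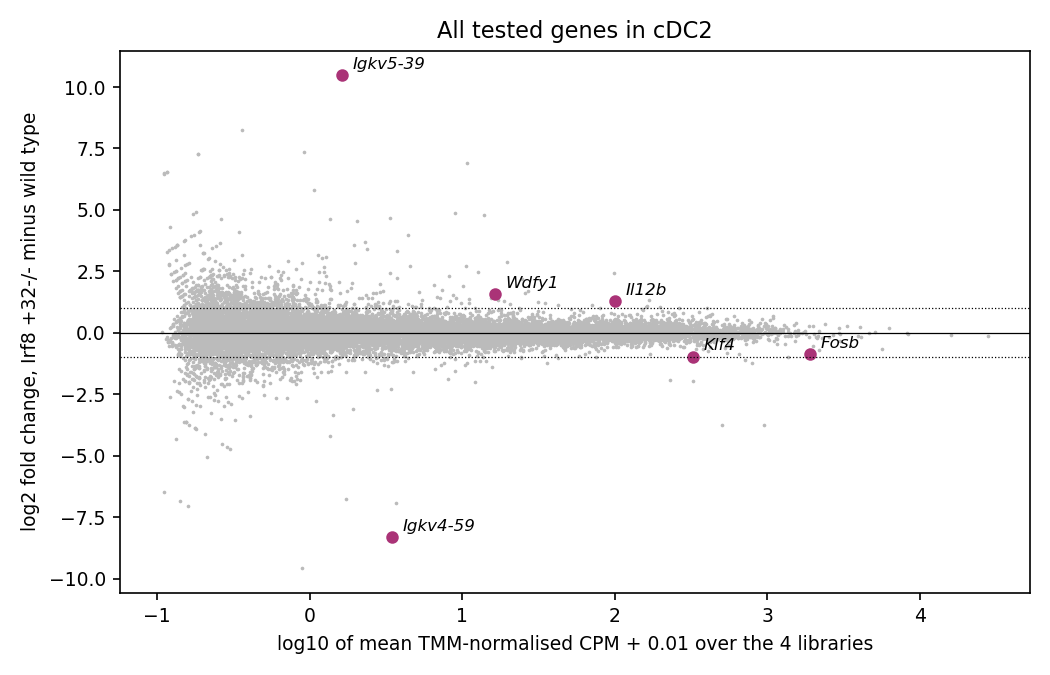
Log2 fold change (mutant minus wild type) of every tested gene against the log10 of its mean CPM over the 4 cDC2 libraries; grey dots are genes that did not pass the test, purple dots the 6 that did, and dotted lines mark a 2-fold difference. Of the called genes only Igkv5-39, Igkv4-59, Wdfy1 and Il12b lie beyond the dotted lines.

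Il12b encodes the p40 subunit shared by interleukin 12 and interleukin 23, with which dendritic cells direct T cells. The gene, at chr11:44400063-44414033 on the plus strand, had 55.0 and 61.9 CPM in the wild-type and 148 and 139 CPM in the mutant libraries. Both mutant libraries lay above both wild-type libraries, which the naming rule required. The mean rose 2.45-fold, from 58.4 ± 4.89 to 143 ± 6.10 CPM (SD, n = 2), with a log2 fold change of 1.29 (SE 0.11, adjusted p = 0.00687, edgeR). Of the partner subunits, Il23a (p19) had 0.582 and 0.464 against 0.858 and 0.677 CPM for wild type and mutant and did not pass the test, and Il12a (p35), with at most 0.176 CPM in any library, was too low to be tested. The wild-type cDC1 libraries had 624 and 443 CPM of Il12b on the scaling over 8 libraries, above the 147 CPM of mutant cDC2. Zeb2 mutant cDC1 had 441 and 483 CPM, which overlapped with wild-type cDC1.

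Klf4, a zinc-finger transcription factor that part of the cDC2 lineage needs, lies at chr4:55527143-55532466 on the minus strand. It had 406 and 454 CPM in the wild-type and 208 and 231 CPM in the mutant libraries. The groups did not overlap, which the naming rule required. The mean fell 1.96-fold, from 430.0 ± 33.3 to 219.9 ± 16.1 CPM (SD, n = 2) (log2 fold change -0.97, SE 0.11, adjusted p = 0.0365, edgeR). Wild-type cDC1 had 99.1 and 89.6 CPM of Klf4 on the scaling over 8 libraries, below the 226 CPM of mutant cDC2. Zeb2 mutant cDC1 had 62.1 and 56.8 CPM on that scaling, below both wild-type cDC1 libraries. Lower Klf4 than in the wild type of the same subset was thus seen in both mutants.

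Fosb, an AP-1 subunit and immediate-early gene at chr7:19302696-19310051 on the minus strand, had 2418 and 2512 CPM in the wild-type and 1285 and 1405 CPM in the mutant libraries. Its mean fell 1.83-fold, from 2465 ± 66.9 to 1345 ± 84.8 CPM (SD, n = 2) (log2 fold change -0.87, SE 0.10, adjusted p = 0.0365, edgeR). Wdfy1, an adaptor reported to act in signalling from endosomal Toll-like receptors, lies at chr1:79702262-79776143 on the minus strand. It had 7.42 and 8.95 CPM in the wild-type and 25.1 and 23.7 CPM in the mutant libraries. Its mean rose 2.98-fold, from 8.19 ± 1.09 to 24.4 ± 0.980 CPM (SD, n = 2) (log2 fold change 1.58, SE 0.18, adjusted p = 0.0365, edgeR). For both genes the groups did not overlap, as the naming rule required, and the replicates of a group lay close together. On the scaling over 8 libraries Fosb had 811 and 766 CPM in wild-type and 509 and 492 CPM in Zeb2 mutant cDC1. Wdfy1 had 10.2 and 11.4 CPM in wild-type and 14.1 and 13.5 CPM in Zeb2 mutant cDC1. Fosb and Wdfy1 thus moved the same way in the other mutant.

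**Figure D2:**
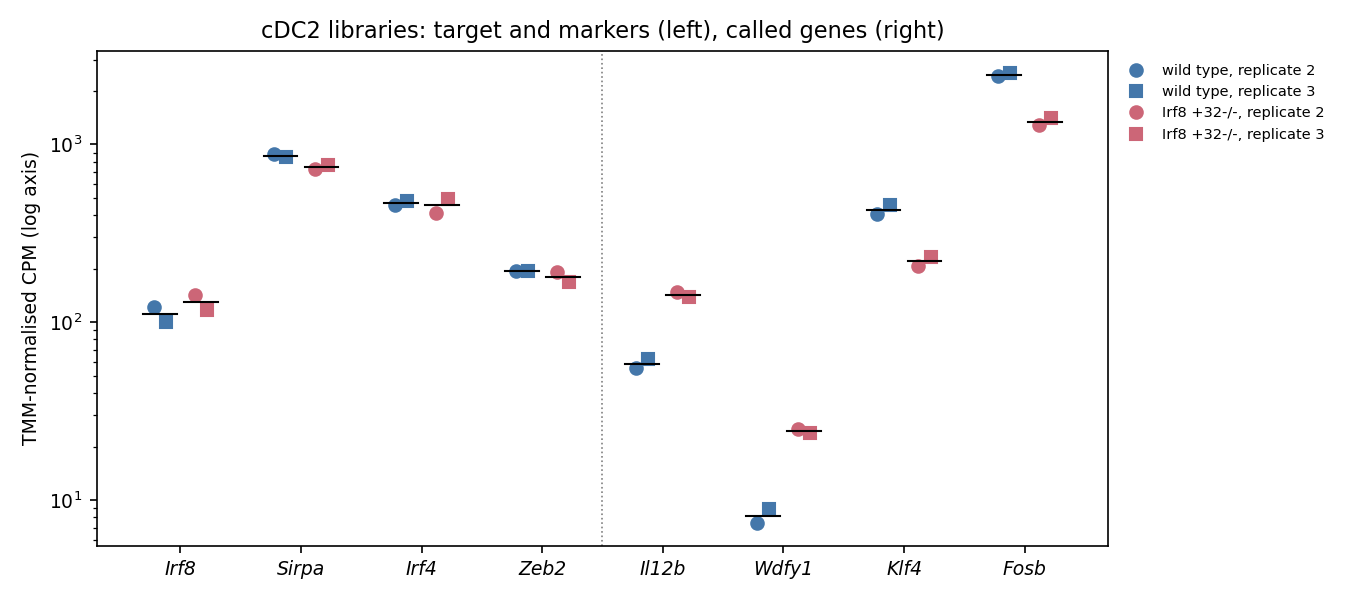
TMM-normalised CPM (log axis) of Irf8, the 3 markers and the 4 called genes other than light-chain segments in each cDC2 library; circles are replicate 2, squares replicate 3, blue wild type, red mutant, and black bars the mean of a group of 2. The mutant points of Il12b and Wdfy1 lie above, and those of Klf4 and Fosb below, both wild-type points, while Irf8 and Irf4 overlap.

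The stretch before the start of the called genes shows what sequence the transcription start sits beside; the 250 bases upstream of the start are printed for Il12b, Klf4 and Fosb, from RefSeq promoter windows on GRCm38.p6, each 5′ to 3′ on the gene's own strand. Capitals mark matches to the motifs searched on both strands: the interferon-stimulated response element (2 GAAA boxes with 2 bases of any kind between them), the ETS-IRF element (a GGAA box, 2 bases of any kind and a GAAA box), the AP-1 site TGANTCA, the TATA box TATANAA and the heat shock unit GAANNTTC. The first pair can overlap each other.
Il12b, plus strand, chr11:44399813-44400062: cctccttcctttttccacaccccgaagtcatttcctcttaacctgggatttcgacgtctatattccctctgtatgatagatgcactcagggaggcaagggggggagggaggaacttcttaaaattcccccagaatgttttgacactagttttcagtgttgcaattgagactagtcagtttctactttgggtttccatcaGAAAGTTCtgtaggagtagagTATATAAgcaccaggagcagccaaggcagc
Klf4, minus strand, chr4:55532476-55532725: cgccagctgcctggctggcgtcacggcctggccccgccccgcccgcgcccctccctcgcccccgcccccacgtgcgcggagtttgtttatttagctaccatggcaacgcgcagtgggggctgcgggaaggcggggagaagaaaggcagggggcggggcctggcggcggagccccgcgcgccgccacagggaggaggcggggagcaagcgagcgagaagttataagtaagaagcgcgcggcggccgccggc
Fosb, minus strand, chr7:19310046-19310295: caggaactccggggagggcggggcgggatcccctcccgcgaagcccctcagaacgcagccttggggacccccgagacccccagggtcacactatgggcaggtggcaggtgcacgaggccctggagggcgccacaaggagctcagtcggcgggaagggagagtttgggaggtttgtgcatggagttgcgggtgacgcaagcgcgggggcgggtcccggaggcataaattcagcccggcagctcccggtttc
The Il12b window held 1 TATA box and 1 heat shock unit, and the windows of Klf4 and Fosb held none of the 5 motifs. Over 32851 windows of this length, 2.98% held the response element, 2.30% the ETS-IRF element, 6.75% the AP-1 site, 10.4% the TATA box and 6.69% the heat shock unit. Of 21 genes sought (the 20 named for their size or rank, and Hspa1b) 15 had a window, and of these 0 held the response element or the AP-1 site and 1 (Dapp1) held the ETS-IRF element.

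The light-chain segments encode parts of antibodies, which dendritic cells do not rearrange. Igkv5-39, at chr6:69900424-69900977, had 0 and 0 counts in the wild-type and 183 and 155 counts in the mutant libraries, at least 125-fold higher when 3 counts over both wild-type libraries are taken as the floor. Igkv4-59, at chr6:69438218-69438757, had 345 and 450 counts against 2 and 0, a ratio of 358 with a 95% counting interval of 98.6 to 2957. On the scaling over 8 libraries the wild-type cDC1 libraries had 3.27 and 0.0855 CPM of Igkv4-59. Libraries of the same group can thus differ widely in this segment. Of 28 variable segments tested, 1 was called in each direction with edgeR and 3 higher and 4 lower with DESeq2. Summed over variable segments the libraries held 58.3 and 187 CPM (wild type) and 244 and 72.1 CPM (mutant), so the groups overlapped. Jchain, the joining chain of plasma cells, overlapped too (12.5 and 40.2 against 38.7 and 10.5 CPM). Of 6 plasma cell genes tested, a list drawn up after the values were seen, 0 were called by either tool and 1 was higher at an unadjusted p under 0.05 with edgeR, with a median of 0.21 (-0.39 without mutant replicate 2). Reads shared between related segments make single segments uncertain.

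The next 8 genes per direction by unadjusted p, among those with at least 5 CPM and no overlap between the groups, did not pass the edgeR test. All of them passed with DESeq2, which used the same 4 libraries. Since they were picked by their edgeR p, this is no separate support. Among the higher genes, Gpcpd1, a glycerophosphocholine phosphodiesterase, had 262 and 276 CPM in the wild-type and 590.1 and 478 CPM in the mutant libraries (log2 fold change 0.99, adjusted p = 0.0523, edgeR). Scd1, a fatty acid desaturase, had 13.1 and 11.9 CPM in the wild-type and 52.8 and 29.4 CPM in the mutant libraries (log2 fold change 1.71). Il1r2, the decoy receptor for interleukin 1, had 877 and 814 CPM in the wild-type and 1431 and 1261 CPM in the mutant libraries (log2 fold change 0.67). In each of these genes both mutant libraries lay above both wild-type libraries, as the selection required. Tnfaip8, Dapp1, Ggta1 and Frmd4b had log2 fold changes from 0.63 (Dapp1) to 0.81 (Ggta1).

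Among the lower genes, Hpgd, which inactivates prostaglandins, had 82.0 and 82.5 CPM in the wild-type and 40.6 and 49.1 CPM in the mutant libraries (log2 fold change -0.87, adjusted p = 0.116, edgeR). Dhcr7, the last enzyme of cholesterol synthesis, had 15.0 and 11.7 CPM in the wild-type and 4.5 and 4.62 CPM in the mutant libraries (log2 fold change -1.55). Ccrl2, an atypical receptor that binds chemerin, had 523 and 507 CPM in the wild-type and 271 and 336 CPM in the mutant libraries (log2 fold change -0.76). Every mutant library lay below every wild-type library in these genes, as the selection required. Mapk11, Rhob, Lyz1, Dedd2 and Jade2 had log2 fold changes from -1.14 (Jade2) to -0.73 (Rhob). On the scaling over 8 libraries Hpgd was also lower in Zeb2 mutant than in wild-type cDC1 (6.02 and 6.20 against 23.6 and 18.4 CPM). Dhcr7 was lower there too (12.5 and 15.6 against 16.7 and 19.0 CPM), and Ccrl2 overlapped. Of 18 prostaglandin and leukotriene genes DESeq2 called Hpgd alone and edgeR 0 (3 lower and 0 higher at an unadjusted p under 0.05), with a list median of 0.05, and of 20 cholesterol synthesis genes DESeq2 called Dhcr7 alone and edgeR 0 (2 lower and 1 higher), with a median of 0.03. Hpgd was put in its list because an earlier analysis of these data showed it, so its call there is no separate support.

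Among the immediate-early genes, which are transcribed within minutes of a stimulus, most values were lower in the mutant. Of 27 tested, Hspa1b among them, 1 (Fosb) passed the edgeR test, 21 had a log2 fold change below 0 and 14 were lower at an unadjusted p under 0.05, while 2 were higher; the median was -0.29. DESeq2 called 7 lower and 0 higher. Over all tested genes 4.6% were lower and 4.95% higher at an unadjusted p under 0.05 with edgeR. DESeq2 called 0.987% lower and 0.972% higher among all genes with an adjusted p. The same shares apply beside the counts of every list. Egr1, a zinc-finger factor, had 1017 and 953 CPM in the wild-type and 352 and 552 CPM in the mutant libraries (log2 fold change -1.12, adjusted p = 0.154 with edgeR and 2.86e-07 with DESeq2). Nr4a1, an orphan nuclear receptor, had 7272 and 6696 CPM in the wild-type and 3802 and 4982 CPM in the mutant libraries (log2 fold change -0.67, adjusted p = 0.190 with edgeR and 8.78e-04 with DESeq2). Fos had 2346 and 2299 CPM in the wild-type and 1210.0 and 1625 CPM in the mutant libraries (log2 fold change -0.71, adjusted p = 0.171 with edgeR and 3.95e-04 with DESeq2). On the scaling over 8 libraries Egr1, Nr4a1 and Fos were lower in Zeb2 mutant than in wild-type cDC1 too. Egr1 had 577 and 789 against 456 and 346 CPM, wild type before mutant. Nr4a1 had 3962 and 3023 against 2735 and 2848 CPM, and Fos 2414 and 3459 against 2061 and 1775 CPM. Other list members are not compared there.

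Mutant replicate 2 was the lowest library for Egr1, Nr4a1, Fos, Jun, Atf3 and Klf2. The direction was not shared by all members. Nr4a2, a relative of Nr4a1, had 1834 and 1812 CPM in the wild-type and 2140.2 and 2228 CPM in the mutant libraries, and the phosphatase gene Dusp2 had 254 and 246 CPM in the wild-type and 292 and 297 CPM in the mutant libraries; both were higher in both mutant libraries, and neither passed either test. Egr2 and Egr3 were among the DESeq2 calls, with log2 fold changes of -0.80 and -0.49, and Junb (-0.23) and Dusp1 (-0.16) were not.

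Heat shock genes, which encode chaperones that hold proteins in shape, had lower values in the mutant and a wide spread within the wild type. This list was drawn up after the values were seen and is given as a description. Hspa1b, an inducible chaperone, had 2591 and 942 CPM in the wild-type and 116 and 144 CPM in the mutant libraries. The wild-type libraries differed 2.75-fold from each other, and the lower of them was still 6.52-fold above the higher mutant library. Its log2 fold change was -3.76 (95% interval -6.28 to -1.24, adjusted p = 0.404 with edgeR and 2.90e-05 with DESeq2). Hspa1a, a nearly identical copy whose reads cannot be told apart with certainty, had 1384 and 499.7 CPM in the wild-type and 65.5 and 72.9 CPM in the mutant libraries.

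The cochaperone gene Dnajb1 had 708 and 324 CPM in the wild-type and 122 and 144 CPM in the mutant libraries, and the constitutive chaperone gene Hspa8 had 3279 and 2169 CPM in the wild-type and 1665 and 1705 CPM in the mutant libraries. In both, wild-type replicate 2 was the highest library and the mutant libraries lay close together. On the scaling over 8 libraries Dnajb1 had 337 and 491 CPM in wild-type and 278 and 190 CPM in Zeb2 mutant cDC1. Hspa8 overlapped between those groups. Of 23 tested members 0 were called with edgeR (12 lower and 3 higher at an unadjusted p under 0.05) and 7 lower with DESeq2, 18 were below 0, and the list median was -0.46 (-0.27 without wild-type replicate 2 and -0.65 without wild-type replicate 3). For all tested genes the edgeR shares at that threshold were 4.6% lower and 4.95% higher, and DESeq2 called 0.987% lower. Of the chaperones of the endoplasmic reticulum, Hspa5 had a log2 fold change of -0.05 and Hsp90b1 of 0.24. The heat shock list summed to 13886 and 8616 CPM in the wild-type and 6434 and 6538 CPM in the mutant libraries. The immediate-early list summed to 40018 and 36654 CPM in the wild-type and 25649 and 29583 CPM in the mutant libraries. Neither sum overlapped between the groups. Sums of lists with smaller differences did not overlap either. Examples are the cell cycle genes (2045 and 2094 against 2163 and 2301 CPM) and the dendritic cell transcription factors (9093 and 8909 against 8871 and 8675 CPM). Non-overlap of a sum alone therefore does not set a list apart. Whether the lower heat shock values have a part in the other differences was not tested.

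**Figure D3:**
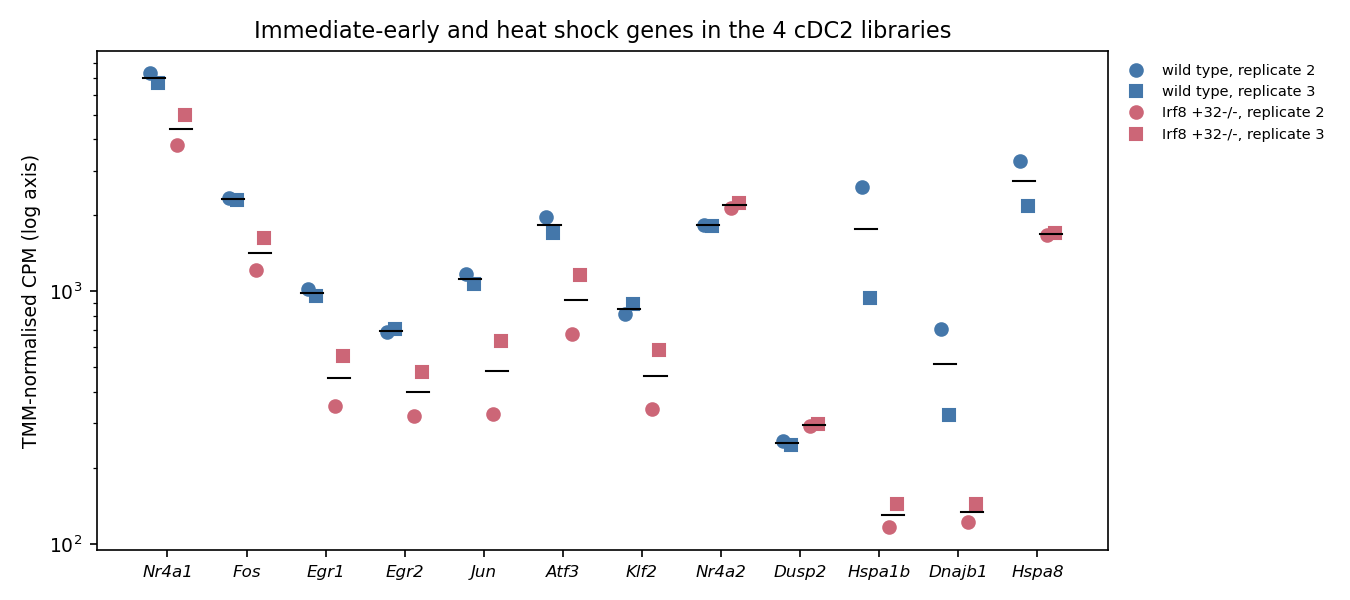
TMM-normalised CPM (log axis) of 9 immediate-early genes and of the heat shock genes Hspa1b, Dnajb1 and Hspa8 in the 4 cDC2 libraries; circles are replicate 2, squares replicate 3, blue wild type, red mutant, black bars group means. Nr4a2 and Dusp2 are higher in both mutant libraries, the other genes lower, and the wild-type points of Hspa1b lie 2.75-fold apart.

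Among IRF8 partners and AP-1 factors 14 of 19 tested had a log2 fold change below 0. Of these 19, edgeR called Fosb alone (8 lower and 1 higher at an unadjusted p under 0.05) and DESeq2 called Fos, Fosb and Bcl6 lower and Id2 higher, with a list median of -0.16. Id2, an inhibitor of E proteins that cDC1 need, had 169 and 189 CPM in the wild-type and 274 and 274 CPM in the mutant libraries (log2 fold change 0.62, adjusted p = 0.140 with edgeR and 6.03e-04 with DESeq2). Bcl6, a transcriptional repressor, had 352 and 333 CPM in the wild-type and 198 and 258 CPM in the mutant libraries. The groups did not overlap for either gene. Of the partners that bind DNA beside IRF8, Batf3 had a log2 fold change of -0.06 (95% interval -0.32 to 0.20), and Spi1, which encodes PU.1, had 0.10 (-0.12 to 0.32), while its relative Spib had -0.38 (-0.63 to -0.14). Jun, with 1166 and 1066 against 327 and 636 CPM, had a log2 fold change of -1.21 and did not pass either test. Of 24 dendritic cell transcription factors, edgeR called Klf4 alone (6 lower and 3 higher at an unadjusted p under 0.05) and DESeq2 called Klf4, Bcl6 and Mycl lower and Id2 higher, and the list median was 0.05. Mycl, a relative of Myc, had 161 and 147 CPM in the wild-type and 89.1 and 117 CPM in the mutant libraries.

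List medians near 0 give no direction. Of the 28 lists, 13 had a median within 0.1 of 0, and in 12 of these the sign turned when 1 library was left out. It turned in 3 of the other lists too, the erythroid and platelet, plasma cell and B cell genes.

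**Figure D4:**
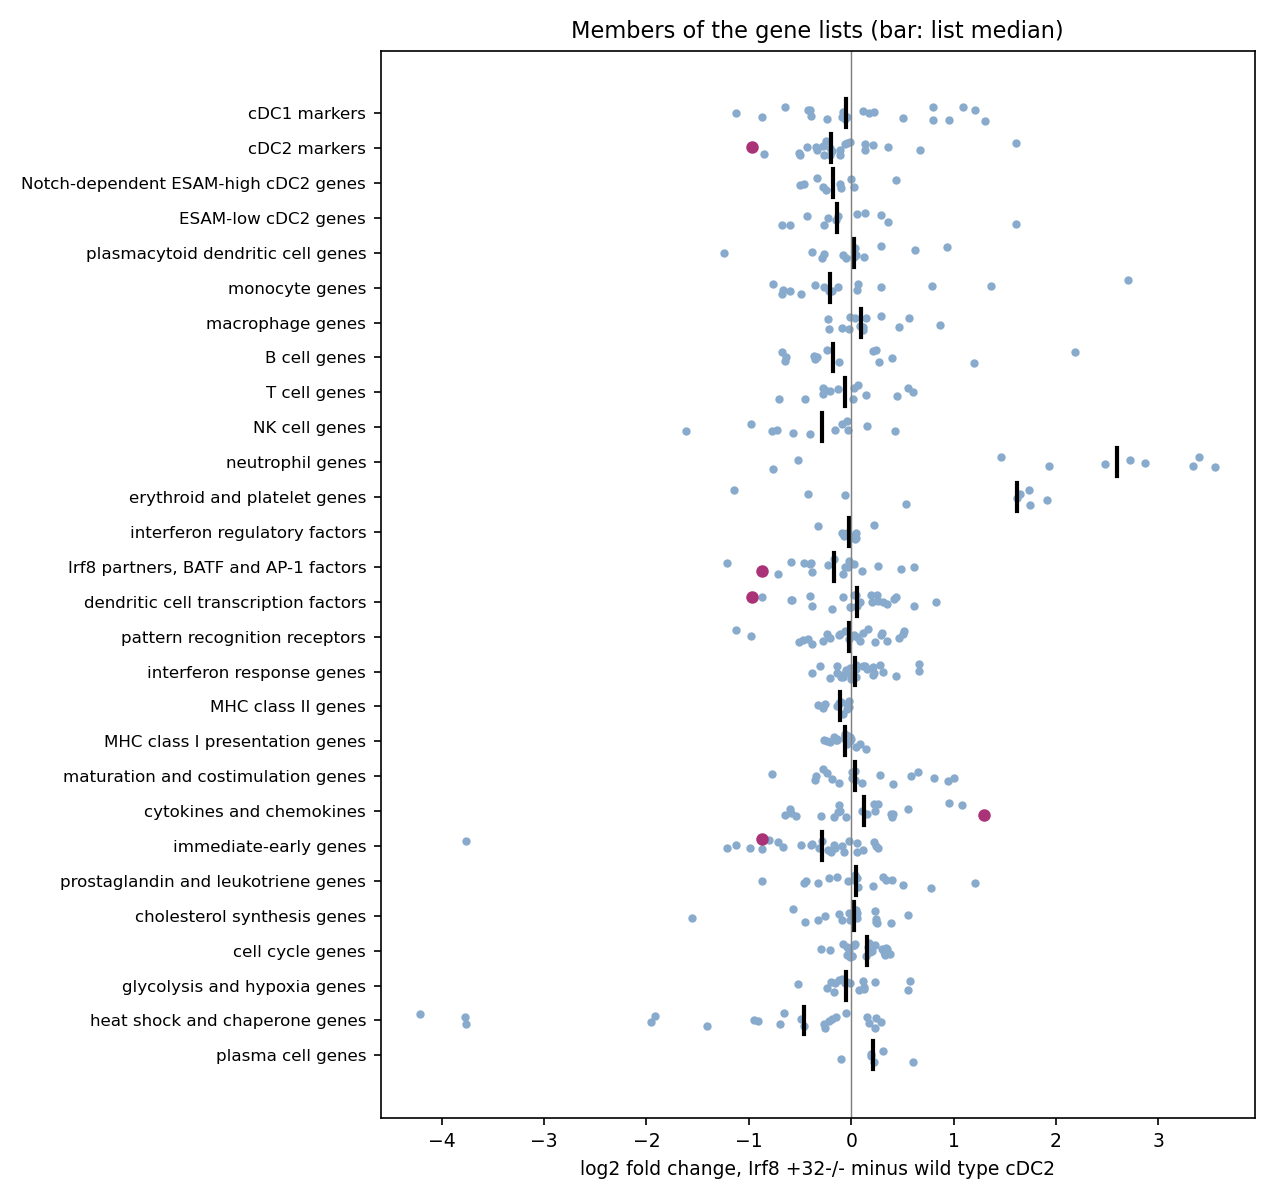
Log2 fold change (mutant minus wild type) of each tested member of the gene lists; each dot is a gene, purple dots passed the edgeR test, and the black bar is the median of the list. The vertical spread of the dots carries no value, and the purple dots are Il12b, Klf4 and Fosb, the last pair in more than 1 list each.

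Most cDC2 markers had slightly lower values in the mutant. Of 24 cDC2 markers edgeR called 1 lower (Klf4) and 0 higher, 9 were lower and 1 was higher at an unadjusted p under 0.05, 18 were below 0, and the median was -0.20; 21 had an interval within 2-fold. DESeq2 called Klf4 and Ltb lower and Il1r2, given above, higher. Among all tested genes 4.6% were lower and 4.95% higher at an unadjusted p under 0.05 with edgeR. DESeq2 called 0.987% lower and 0.972% higher. Ltb, which encodes lymphotoxin beta, had 236 and 205 CPM in the wild-type and 103 and 142 CPM in the mutant libraries and was called with DESeq2 (adjusted p = 7.82e-05) and not with edgeR (0.155). Esam, which marks the cDC2 that depend on Notch2, had 64.4 and 51.7 CPM in the wild-type and 38.7 and 43.1 CPM in the mutant libraries (log2 fold change -0.50, adjusted p = 0.291, edgeR). Of the 10 genes of that subset 0 were called by either tool (4 lower and 0 higher at an unadjusted p under 0.05 with edgeR), 8 were below 0 and the median was -0.18.

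Of 12 genes of ESAM-low cDC2, edgeR called 0 (4 lower and 0 higher at an unadjusted p under 0.05) and DESeq2 called Lyz2 and Cx3cr1 lower, with a median of -0.14. Lyz2, a lysozyme of myeloid cells, had 642 and 644 CPM in the wild-type and 463 and 384 CPM in the mutant libraries, and Cx3cr1, the receptor for fractalkine, had 30.0 and 32.0 CPM in the wild-type and 16.9 and 21.8 CPM in the mutant libraries. Mgl2, a lectin that other studies use for a cDC2 subset, stood apart in 1 library, with 12.3 and 13.3 CPM in the wild-type and 60.1 and 17.7 CPM in the mutant libraries. In bulk samples fewer cells of a type and less RNA per cell cannot be told apart.

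The cDC1 markers lay on both sides of 0. Of 22 tested, edgeR called 0 (5 higher and 3 lower at an unadjusted p under 0.05). The log2 fold change was above 0 for 10 and below 0 for 12, with a median of -0.05. DESeq2 called Ly75, Rab7b and Ifi205 higher. The shares over all genes were 4.95% higher and 4.6% lower at that edgeR threshold and 0.972% called higher with DESeq2. Ly75, the endocytic receptor DEC-205, had 30.3 and 40.0 CPM in the wild-type and 80.8 and 55.0 CPM in the mutant libraries (log2 fold change 0.95, adjusted p = 0.201 with edgeR and 6.91e-04 with DESeq2). Xcr1 had 3.65 and 3.30 CPM in the wild-type and 6.08 and 6.01 CPM in the mutant libraries (0.80, adjusted p = 0.359, edgeR). Other cDC1 genes lay the other way: Clec9a, the receptor for dead cells, had 10.4 and 10.3 against 7.82 and 7.84 CPM, and Tlr3 had 2.13 and 3.06 against 1.27 and 1.11 CPM, wild type before mutant. Dkk3, Gcsam, Clnk and Gpr33 had at most 0.537 CPM in any library and were not tested. The whole list summed to 2042 and 1894 CPM in the wild-type and 2081 and 1873 CPM in the mutant libraries, which overlap. Wild-type cDC1 had 240.6 CPM of Ly75 on average on the scaling over 8 libraries.

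Among genes of maturation and costimulation Cd86 and Cd80, the ligands of CD28, had higher values in the mutant. Of 19 tested, edgeR called 0 (5 higher and 2 lower at an unadjusted p under 0.05) and DESeq2 called Cd86, Cd200 and Socs2 higher. The median was 0.04. In all genes 4.95% were higher and 4.6% lower at that edgeR threshold, and DESeq2 called 0.972% higher. Cd86 had 177 and 174 CPM in the wild-type and 423 and 279 CPM in the mutant libraries, 2.00-fold higher on average (log2 fold change 1.0, adjusted p = 0.154 with edgeR and 1.45e-05 with DESeq2). Cd80 had 180.1 and 193 CPM in the wild-type and 252 and 243 CPM in the mutant libraries (adjusted p = 0.254, edgeR). Ccr7, the receptor that leads dendritic cells to lymph nodes, had 1769 and 1639 CPM in the wild-type and 2221 and 1918 CPM in the mutant libraries, and Cd40 had 53.0 and 47.6 CPM in the wild-type and 43.8 and 39.4 CPM in the mutant libraries. Cd86, Cd80 and Ccr7 were highest in mutant replicate 2, and Cd40 was lower in both mutant libraries.

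Among 22 cytokines and chemokines edgeR called Il12b alone, and DESeq2 also called Ccl3 and Ccl4 lower. Ccl4, a chemokine gene, had 511 and 499.5 CPM in the wild-type and 284 and 384 CPM in the mutant libraries, and Ccl3 had 157 and 174 CPM in the wild-type and 91.9 and 129 CPM in the mutant libraries. Ccl5, which encodes a further chemokine, had 164 and 159 CPM in the wild-type and 202 and 226 CPM in the mutant libraries, in the other direction (adjusted p = 0.273, edgeR). Il6 had 1.97 and 2.58 against 4.63 and 4.22 CPM and Tnf 53.8 and 56.1 against 62.5 and 66.5 CPM, wild type before mutant; neither passed either test. Il1b, at 2395 and 2120.4 against 1792 and 2337 CPM, overlapped between the groups.

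Antigen presentation, pattern recognition and interferon response genes showed 0 calls with either tool; at an unadjusted p under 0.05 with edgeR, 3 class II, 1 class I, 5 receptor and 1 interferon response gene were lower, and 2 receptor and 2 interferon response genes were higher. All 12 MHC class II genes had a log2 fold change below 0, between -0.32 and -0.02 with a median of -0.11, and all 12 intervals lay within 2-fold. Ciita, the master activator of that family, had 642 and 582 CPM in the wild-type and 474 and 504 CPM in the mutant libraries (adjusted p = 0.358, edgeR). The 19 genes of MHC class I presentation had a median of -0.06, the 25 pattern recognition receptors -0.02 and the 28 interferon response genes 0.04; in the last list 25 intervals lay within 2-fold. Rsad2, an antiviral gene often read for interferon, had 63.2 and 53.4 against 45.7 and 48.6 CPM, and Oasl1 had 7.72 and 6.12 against 11.5 and 10.4 CPM, wild type before mutant.

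Cell cycle genes had a median of 0.16, with 19 of 26 above 0, 0 called by either tool, 5 higher and 0 lower at an unadjusted p under 0.05 and all 26 intervals within 2-fold. Rrm2, a subunit of ribonucleotide reductase, had 84.6 and 93.5 CPM in the wild-type and 110.2 and 116 CPM in the mutant libraries, and the proliferation marker Mki67 had 137 and 142 against 152 and 132 CPM, wild type before mutant. Among 18 glycolysis and hypoxia genes the median was -0.05; edgeR called 0 (1 lower and 1 higher at an unadjusted p under 0.05) and DESeq2 called the hexokinase gene Hk2 lower (90.2 and 76.7 against 57.6 and 58.9 CPM).

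Transcripts of other cell types differed between libraries. The 12 neutrophil genes summed to 30.6 and 51.5 CPM in the wild-type and 133 and 76.0 CPM in the mutant libraries, without overlap. Other list sums did not overlap either, as given above. Of 10 tested, 0 were called with edgeR (3 higher and 1 lower at an unadjusted p under 0.05) and Elane alone with DESeq2. Of the 10, 8 were above 0, and the median was 2.60 (1.79 to 5.20 with each library left out). Without overlap 7 lay higher and 1 lower, against 20% and 19.9% of all tested genes. Levels were low, with 4 members at a mean of 5 CPM or more and Ly6g at most 0.0373 CPM. S100a8 had 0.0705 and 1.25 against 8.58 and 4.90 CPM, wild type before mutant. Ngp, a granule protein gene, had 0.0352 and 9.42 CPM in the wild-type and 54.3 and 14.8 CPM in the mutant libraries, so wild-type replicate 2 almost lacked it. The erythroid and platelet genes summed to 32.1 and 34.6 CPM in the wild-type and 113 and 26.3 CPM in the mutant libraries, and mutant replicate 2 stood apart from the other 3 libraries. Of 9 tested, 0 were called by either tool (1 higher and 1 lower at an unadjusted p under 0.05 with edgeR), and the haemoglobin gene Hba-a1 had 3.31 and 5.14 against 30.3 and 1.47 CPM. The same library was highest for Mgl2, for the monocyte gene Fn1 (7.88 and 4.52 against 28.8 and 3.11 CPM) and for the macrophage receptor Cd163 (11.9 and 10.0 against 24.3 and 8.10 CPM), wild type before mutant.

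The monocyte list, which holds Nr4a1, summed to 9091 and 8468 CPM in the wild-type and 5453 and 6242 CPM in the mutant libraries. Of 16 tested, edgeR called 0 (5 lower and 0 higher at an unadjusted p under 0.05). DESeq2 called 3 lower and 0 higher (Nr4a1, Lyz2 and Cx3cr1). Without overlap 7 lay lower and 1 higher, against 19.9% and 20% of all tested genes, and the median was -0.21. Csf1r, a growth factor receptor gene, had 604 and 593 against 539 and 455 CPM; it, Lyz2 and Cx3cr1 are also in the cDC2 lists. Nr4a1 made up most of the sum, and among members outside the cDC2 lists Ly6c2 (3.52 and 3.54 against 5.21 and 2.19 CPM) and F13a1 (4.99 and 5.57 against 13.4 and 4.84 CPM) overlapped between the groups.

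The B cell genes summed to 639 and 716 CPM in the wild-type and 489 and 438 CPM in the mutant libraries, without overlap, as was the case for other list sums. Ighm and Cd22 made up most of each sum. Of 14 tested, edgeR called 0 (3 lower and 1 higher at an unadjusted p under 0.05) and DESeq2 called Ighm and Cd79b lower, with a median of -0.18 (0.21 without wild-type replicate 3). Ighm, the heavy chain of IgM, had 432 and 508 CPM in the wild-type and 330.1 and 259 CPM in the mutant libraries (adjusted p = 0.00206, DESeq2). Cd79b, a signalling chain of the B cell receptor, had 20.4 and 21.6 CPM in the wild-type and 12.2 and 14.7 CPM in the mutant libraries (adjusted p = 0.0431, DESeq2), and the inhibitory receptor gene Cd22 had 160.4 and 151 against 111 and 132 CPM (adjusted p = 0.376, edgeR). Cd79a, the partner chain of Cd79b, was under 1 CPM in every library. Of the 14 B cell genes 8 were below 0 and 6 above. Pax5, near the floor, was higher in the mutant (0.141 and 0.103 against 0.802 and 0.318 CPM, wild type before mutant). The plasmacytoid dendritic cell list summed to 408 and 403 CPM in the wild-type and 416 and 356 CPM in the mutant libraries; of 13 tested, edgeR called 0 (2 lower and 0 higher at an unadjusted p under 0.05) and DESeq2 called Siglech alone. Siglech, its defining surface lectin, had 10.7 and 10.8 CPM in the wild-type and 4.44 and 4.64 CPM in the mutant libraries (log2 fold change -1.24, adjusted p = 0.154 with edgeR and 1.23e-04 with DESeq2), while Ccr9 had 8.27 and 6.82 against 7.72 and 7.64 CPM. The T cell list (median -0.06), the NK cell list (-0.29) and the macrophage list (0.10) held 0 calls with either tool (at an unadjusted p under 0.05 with edgeR, 1, 0 and 2 were higher and 1, 1 and 0 lower). Without mutant replicate 2 the T cell and macrophage medians were -0.35 and -0.28, and without wild-type replicate 2 the NK cell median was -0.51. The part of these transcripts in the called genes was not tested.

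**Figure D5:**
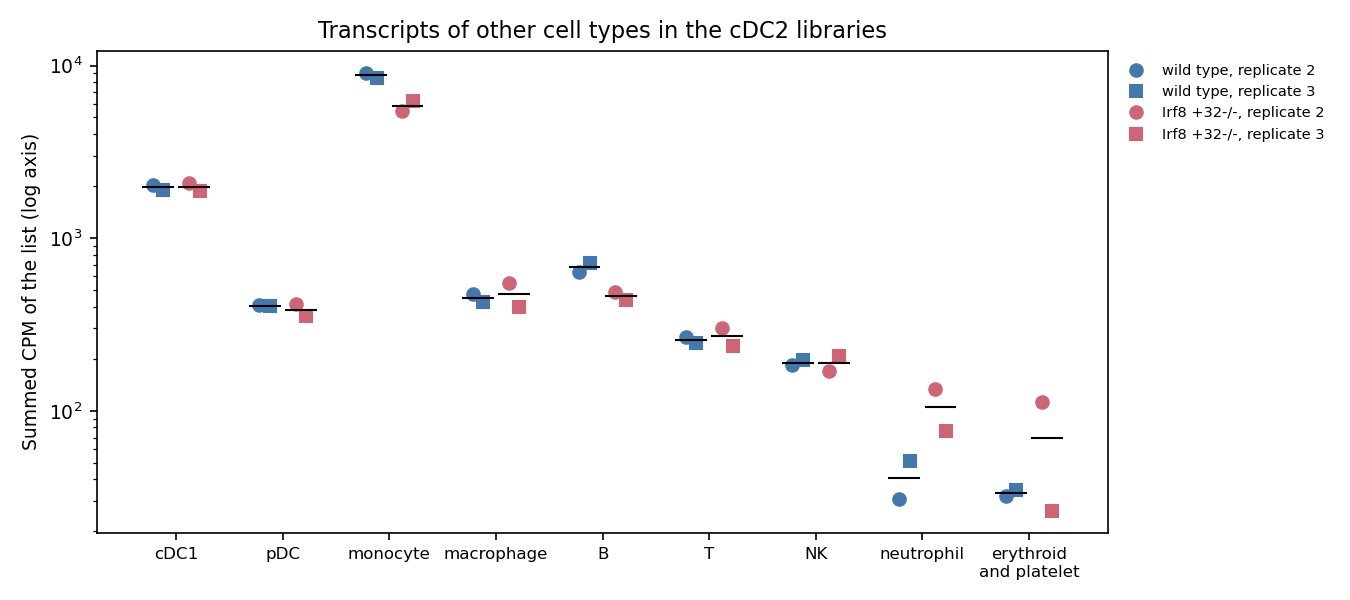
Summed TMM-normalised CPM (log axis) of the marker lists of other cell types in the 4 cDC2 libraries; circles are replicate 2, squares replicate 3, blue wild type, red mutant, black bars group means (the cDC1 list sums to about the same level in all 4). Mutant replicate 2 stands apart for the erythroid and platelet list, and the neutrophil sum is lowest in wild-type replicate 2.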

How the data were processed

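RNA came from sorted splenic dendritic cells; 10 ng of total RNA went into a SMARTer Ultra Low library, a kit that does not mark strand, and paired reads of 150 bases were sequenced, per the labels' protocols. Per the submitters' processing notes, the authors' tools included STAR, featureCounts of Subread, and Salmon, on GRCm38 (mm10); their order, the strand setting and the handling of shared reads are not stated. The deposited count column holds whole reads per gene for 55487 genes, per the file headers, and was used for all tests. The deposited FPKM column (CPM per kilobase of exon, checked on the values) was used only to set levels of different genes side by side, as the authors' values averaged over 2 libraries. Symbols came from GENCODE M21, which held 55227 of the IDs; coordinates are those of the files.

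For the 4 cDC2 libraries edgeR 4.0.16 in R 4.3.3 was used on the counts (filterByExpr, TMM, robust quasi-likelihood test, 1 coefficient per genotype), with a threshold of 0.05 on the Benjamini-Hochberg adjusted p. The common biological coefficient of variation was 0.23. A standard error is the log2 fold change divided by the root of the F statistic. Alternatives were DESeq2 1.42.0, all 8 libraries, other scaling and filters, a replicate block, removal of a gene length trend, and leaving out each library. An exact permutation test of 2 against 2 libraries cannot go below p = 0.333 and was not used. Counting intervals (exact binomial, 95%) and the floor of 3 counts cover counting error only.

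The members, the 26 gene lists, the test and the naming rule were chosen with earlier results of these data known; 2 further lists (heat shock, plasma cell) were drawn up later, and other list members given as examples were picked after their values were seen. Named genes are, per direction, the 10 largest changes among called genes with at least 5 CPM and no overlap, filled up by unadjusted p where fewer qualified, plus Irf8, the 3 markers and up to 3 members per list by unadjusted p. Predicted genes, receptor segments and pseudogenes were skipped as names, except the called segments. Of the genes this rule names, 1 is not reported here. No set test was run. Replicate numbers were not taken as pairs: deviations of same-numbered libraries from their group means had a Pearson correlation of 0.03 over genes.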

Additional observations from a re-analysis of the deposited data

How the results depend on the processing

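The 3 higher and 3 lower calls were the same genes with RLE size factors. DESeq2 called 136 higher and 138 lower on 4 libraries and 75 and 75 on all 8, each with all 6 genes, and edgeR over all 8 libraries called 0 and 0. Without a filter on low counts edgeR called 275 and 215, and with a mean of at least 5 CPM 3 and 2. With the gene length trend removed it called 2 and 1 (Il12b and the 2 light-chain segments). With the replicate number as a block, which the labels do not say pairs the samples, it called 2 and 4, 5 of the 6 genes among them (Wdfy1 was lost), and 64 and 48 when the length trend was removed as well. Leaving out each library in turn gave 8 to 718 higher and 22 to 406 lower calls, with all 6 genes each time; the lone library of a group is then assumed to vary like the other group. The counts were 8 and 22 without wild-type replicate 2, 19 and 31 without wild-type replicate 3, 63 and 129 without mutant replicate 2, and 718 and 406 without mutant replicate 3. On the same 18371 genes, chosen after seeing the data, these pairs were 1 and 8, 9 and 7, 63 and 129, and 409 and 186, and 2 of the 6 genes stayed called without wild-type replicate 2 (the light-chain segments) and 3 without wild-type replicate 3 (these and Il12b). Across all alternatives the log2 fold change ran from 1.20 to 1.37 for Il12b, 1.43 to 1.71 for Wdfy1, -1.06 to -0.90 for Klf4 and -0.94 to -0.83 for Fosb. Among genes near Irf8, 1 was called without mutant replicate 3 and 0 otherwise. Without mutant replicate 2 the sign turned for Irf4 (0.064), Cd163 (-0.45) and Alas2 (-0.20), none called, and over the 4 omissions these ran from -0.18 to 0.064, -0.45 to 1.14 and -0.20 to 2.52; 7 list medians turned as well, from 1.62 to -0.69 (erythroid), 0.21 to -0.39 (plasma cell), 0.10 to -0.28 (macrophage), 0.05 to -0.04 (dendritic cell transcription factors), 0.05 to -0.06 (prostaglandin), 0.04 to -0.17 (maturation) and 0.03 to -0.16 (plasmacytoid). The B cell median turned from -0.18 to 0.21 without wild-type replicate 3. Over all 4 omissions 15 of 28 list medians turned at least once, 12 of them within 0.1 of 0. The cause of these shifts was not tested. Depth limits low genes most: Il12a, Dkk3 and Clnk could not be tested.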

Other observations

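With list members included, the 136 higher and 138 lower DESeq2 calls had a median size of the log2 fold change of 0.77 and 0.69. Of these 37 and 27 differed at least 2-fold, 113 and 126 reached 10 CPM in the higher group, and 135 and 137 had an unadjusted p under 0.05 with edgeR. The genes named here were picked after their values were seen, and none passed the edgeR test on the same libraries. Serpinb9, a serpin that protects cells from granzyme B, had 107 and 102 CPM in the wild-type and 272 and 169.8 CPM in the mutant libraries. Jdp2, an AP-1 repressor, had 107 and 104 CPM in the wild-type and 242 and 162 CPM in the mutant libraries. Nab2, which encodes a corepressor of EGR proteins, had 10.6 and 9.19 CPM in the wild-type and 31.6 and 17.6 CPM in the mutant libraries. All were higher in both mutant libraries, and highest in mutant replicate 2. Cxcr4, the receptor for CXCL12, had 111 and 104 CPM in the wild-type and 73.5 and 69.3 CPM in the mutant libraries. Ccr6, the receptor for CCL20, had 15.6 and 13.5 CPM in the wild-type and 7.69 and 7.68 CPM in the mutant libraries. Tnfaip3, which encodes the NF-κB inhibitor A20, had 1574 and 1461 CPM in the wild-type and 1042 and 1199 CPM in the mutant libraries. These were lower in both mutant libraries, with adjusted p-values from DESeq2 of 0.00228, 0.00345 and 0.0343.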
